A study of Mus musculus with 42 samples.

Results

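Transcripts of the collagen chain genes were followed through intimal RNA of mouse carotid arteries under low and high flow and through cultured endothelial cells. The members are all genes whose symbol is Col, a number, the letter a and a number, which gave 42 of the 21674 genes of the table. Of these, 34 had a mean of at least 1 CPM (the count divided by the total of its library, on the usual scale) in at least 1 of the 23 groups. In 29 of the 34 this mean was reached in arteries, and in the other 5 (Col22a1, Col11a1, Col24a1, Col8a2 and Col17a1) in cultured cells only. The remaining 8 members (Col9a2, Col6a5, Col6a6, Col2a1, Col28a1, Col10a1, Col25a1 and Col13a1) stayed below 1 CPM in every group, and Col13a1 had 0 counts in all 42 libraries.

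Collagens are secreted as helical rods of intertwined chains, which come from a single gene in many types and from several genes in others, such as types I, IV, V and VI. Type IV collagen builds the mesh of the basement membrane on which the endothelium rests, while types I, III and V form the fibrils of the deeper arterial wall. Type VI makes beaded filaments between the fibrils, the FACIT collagens sit on fibril surfaces, type VIII is a short-chain collagen of the subendothelial layer, and a few collagens span the plasma membrane. Exposed arterial collagen is also a ligand for platelets.

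In the wild-type experiments, male C57BL/6J mice of 6 to 7 weeks had the branches of 1 carotid artery partially ligated, which lowers its flow, and the intima was flushed out for RNA after 48 hr. The untreated set held 3 pools of 3 to 5 arteries each from the low-flow side, 3 from the contralateral high-flow side and 3 from sham-operated arteries. In the treated set, 2 pools each came from low-flow arteries of mice given non-specific IgG, the platelet-depleting anti-GPIba antibody, the granulocyte-depleting anti-Gr1 antibody, PBS liposomes or the macrophage-depleting clodronate liposomes, and from high-flow arteries with IgG or PBS liposomes. A further PBS pool and a further clodronate pool were sequenced with 100 bp reads, as were the untreated pools and the primary cells at 5 days described below. All other libraries had 150 bp reads. At 7 days, mice of 2 to 7 months on a C57 background, all Rbfox2 lox/lox with Rosa26-mTmG, were compared with and without Cdh5(PAC)-CreERT2, a tamoxifen-inducible Cre driven by an endothelial promoter. Those with the Cre are called Rbfox2 EC-KO, and Rbfox2 is a splicing regulator. This set held 3 control and 3 EC-KO pools at low flow and 2 and 2 at high flow. The cultures were primary aortic endothelial cells at 5 days, sorted on eGFP, primary control and EC-KO endothelial cells at 7 days, sorted on Cd31 and Icam2, and 4 cultures of 1 aortic endothelial line conditionally immortalized with TetOn-SV40. The added macrophages of the labels are bone-marrow monocytes in the methods. The line was kept for 48 hr untreated, with platelets and macrophages, with 10% plasma, or with all 3 additions, and each culture gave 1 library.

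Library totals ran from 4064477 to 6794904 counts in the untreated pools, from 12286104 to 19035957 in the treated pools, from 10318685 to 18633538 at 7 days and from 4989843 to 16394043 in the cultures. Nothing in the labels beyond the pooling says how far pools of a group were separate, so the p-values measure the spread between these pools. As a check of the 7 day labels, Rbfox2 had 3.27, 5.73 and 2.74 FPKM (CPM per kilobase of effective gene length) in the low-flow controls and 1.09, 0.169 and 0.622 FPKM in the low-flow EC-KO pools. At high flow it had 3.66 and 3.84 FPKM in controls and 0.791 and 1.05 FPKM in EC-KO. The flush held signal of other cells besides endothelium. In the untreated pools, 11 endothelial marker genes took 0.405% to 0.54% of the counts at low flow and 0.831% to 1.03% at high flow, and 10 smooth muscle markers took 0.234% to 0.433% and 0.0565% to 0.066%. The endothelial markers did not all move 1 way. By the edgeR test used below, Emcn, Kdr and Robo4 were called higher at low flow and Cldn5, Tek and Vwf lower. The median log2 fold-change of the 11 was 0.12, against −0.07 over all genes. The share of 10 fibroblast markers was 0.0302% to 0.0924% at low flow and 0.191% to 0.252% at high flow, and that of 14 macrophage markers 0.229% to 0.342% and 0.00951% to 0.0211%. In bulk RNA, fewer cells of a type and less RNA per cell cannot be told apart.

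The members fall into 8 basement membrane chains (Col4a1 to Col4a6, Col15a1 and Col18a1), 11 fibrillar chains, 5 beaded-filament chains of type VI, 9 FACIT chains, 3 short chains, 4 transmembrane chains, Col7a1 of the anchoring fibrils and Col28a1. All 8 basement membrane chains passed 1 CPM in an artery group, against 8 of the 11 fibrillar and 3 of the 5 beaded-filament chains. The 3 couples of type IV genes lie head to head. Col4a4 lies on the minus strand of chromosome 1 from 82447298 to 82583424 (NCBIM37 assembly, GENCODE annotation), and Col4a3 starts after it on the plus strand and runs to 82718634. The 71 bases between their starts are shown because both genes had lower values at low flow in every flow comparison described below. Col4a1, on chromosome 8 from 11198423 to 11312826 on the minus strand, and Col4a2, from 11312805 to 11449287 on the plus strand, overlap by 22 bases. Capitals mark CACCC in the first sequence and GGGCGG in the second, both read from the plus strand of NCBIM37.
Col4a4 to Col4a3 interval, chr1:82583425-82583495: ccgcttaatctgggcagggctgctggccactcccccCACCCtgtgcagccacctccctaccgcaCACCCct
Col4a1 and Col4a2 overlap, chr8:11312805-11312826: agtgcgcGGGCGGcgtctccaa

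The interval between Col4a4 and Col4a3 held 69.0% G and C bases and 2 copies of CACCC. Col8a1 and Col23a1 are shown next because they changed in opposite directions, both with low flow and with platelet depletion. Their 250 bases before the gene start came from the RefSeq promoter table on GRCm38.p6 and are printed 5′ to 3′ on the strand of the gene, with CACCC and GGGCGG, or their reverse complements GGGTG and CCGCCC, in capitals.
Col8a1, minus strand, chr16:57754738-57754987: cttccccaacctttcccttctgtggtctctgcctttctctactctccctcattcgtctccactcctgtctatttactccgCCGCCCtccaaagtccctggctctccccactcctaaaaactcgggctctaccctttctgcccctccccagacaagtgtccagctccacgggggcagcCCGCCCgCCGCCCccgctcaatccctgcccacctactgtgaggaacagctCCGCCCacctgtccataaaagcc
Col23a1, plus strand, chr11:51289670-51289919: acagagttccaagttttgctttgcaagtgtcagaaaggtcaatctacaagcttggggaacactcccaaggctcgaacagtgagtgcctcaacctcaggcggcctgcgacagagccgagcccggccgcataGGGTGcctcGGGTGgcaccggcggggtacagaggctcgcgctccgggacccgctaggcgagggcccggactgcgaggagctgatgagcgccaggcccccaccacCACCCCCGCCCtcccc

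The Col8a1 window held 4 matches to GGGCGG and none to CACCC, and the Col23a1 window held 3 matches to CACCC and 1 to GGGCGG, of which the last match to each lie directly side by side. Short motifs, spelled out with their results here, were searched on both strands in windows of 300 bases, from 250 before to 50 after the start, for the 34 of 42 members that the RefSeq table holds. The 34 members had 37 windows, and a member was counted if any of its windows held the motif. The share over all genes is per window, so the 2 shares differ in unit. CACCC was in a window of 26 of the 34 members (76.5%) and in 57.5% of all 32851 windows. GGGCGG was in 22 members (64.7%) and 35.7% of all windows, and CCAAT in 13 members (38.2%) and 37.4%. TATAAA was in 5 members (14.7%) and 13.6% of the windows, and TGANTCA in 1 member (2.94%) and 7.81%. These matches describe the letters of the windows and were not tested as binding sites.

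Between low and high flow in untreated arteries at 48 hr, Col4a3, Col4a4, Col23a1, Col1a2, Col5a1 and Col14a1 were lower at low flow and Col8a1, Col5a2, Col18a1, Col4a2 and Col4a1 were higher. Of the 15 members that passed the filter on low counts, 11 had an adjusted p under 0.05 by the quasi-likelihood test of edgeR with Benjamini-Hochberg adjustment, and 46.2% of all 11236 genes tested did. The 6 lower members stand beside 22.6% of all genes called lower, and the 5 higher members beside 23.6% called higher. The median log2 fold-change of the 15 members was −0.86, against −0.07 over all genes. On the FPKM scale the pools of 8 of the 15 did not overlap between low and high flow. The share over all genes was not computed, so this count is no result about the members. Fold-changes are on the TMM scale of edgeR, which sets the typical gene near 0. Scaling by plain library totals moved the median of all genes to −0.69, a shift of 0.62, whereas the FPKM values are scaled by plain totals.

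The basement membrane chains parted into 2 directions. Col4a3, a chain of the type IV network best known from the kidney filter, had 3.16, 1.06 and 14.1 FPKM in low-flow pools a, b and c, and 59.6, 80.7 and 122 FPKM in the 3 high-flow pools. The low-flow pools all lay below the high-flow pools, and pool c was the highest of them. The log2 fold-change of Col4a3 was −3.47 (standard error 0.56, edgeR adjusted p = 0.000592). Col4a4, its partner in the same network, had 1.11, 0.646 and 3.87 FPKM at low flow and 25.6, 22.8 and 22.6 FPKM at high flow. These groups did not overlap either, and the log2 fold-change was −3.16 (standard error 0.32, edgeR adjusted p = 2.48e-05). In the 35 artery libraries the ratio of Col4a3 to Col4a4 FPKM had a median of 1.73 and ranged from 0.964 to 5.41.

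Col18a1, the heparan sulfate proteoglycan chain that releases endostatin, moved the other way. It had 15.4, 22.3 and 41.3 FPKM at low flow and 13.0, 14.8 and 12 FPKM at high flow. All low-flow pools lay above the high-flow pools, narrowly in pool a, and the log2 fold-change was 1.60 (standard error 0.21, edgeR adjusted p = 0.000158). Col4a1, a chain of the common type IV network, had 13.2, 9.90 and 26.1 FPKM at low flow and 14.3, 18.5 and 15.2 FPKM at high flow. Col4a2, which assembles with it, had 4.57, 5.00 and 9.93 FPKM at low flow and 5.42, 6.53 and 5.54 FPKM at high flow. The pools of both genes overlapped on the FPKM scale, with pool c highest of all. The TMM-scaled log2 fold-changes were 0.64 for Col4a1 (standard error 0.20, edgeR adjusted p = 0.0203) and 0.78 for Col4a2 (standard error 0.16, edgeR adjusted p = 0.00302), and with plain library totals they were 0.04 and 0.16 with edgeR adjusted p of 0.946 and 0.793. Across the 35 artery libraries Col4a1 held a median of 2.35 times the FPKM of Col4a2, with a range from 1.44 to 3.32. The 22 bases that the genes share are fewer than the 100 or 150 bp of a read, and the assignment of reads there was not tested. For the untreated pools the methods name a first-strand library setting of the aligner, and the options listed there for the counting by RSEM name no strand setting.

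**Figure D1:**
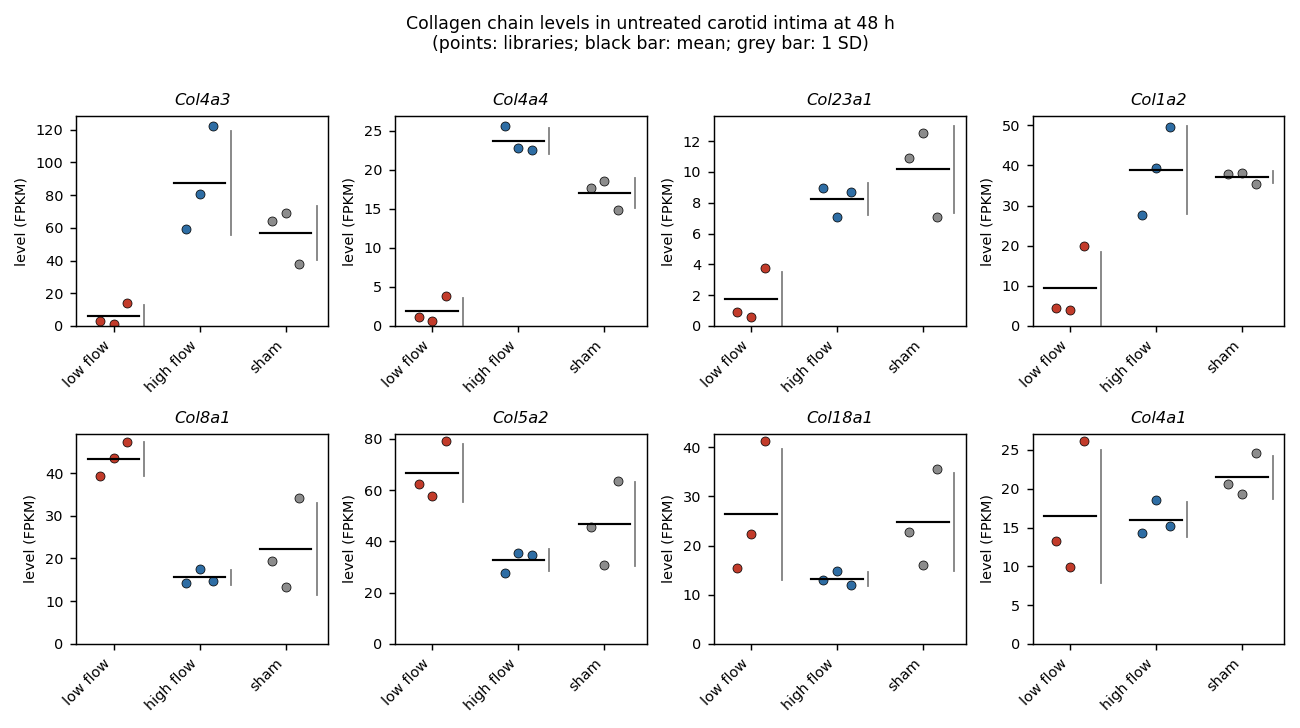
Level in FPKM on a linear axis from 0 of 8 collagen chains in the untreated pools at 48 hr, for low flow, high flow and sham along the x axis, with 1 point per pool, a black bar at the mean and a grey bar of 1 SD either side. Col4a3 and Col4a4 lay lower in all 3 low-flow pools than in any high-flow or sham pool, and Col8a1 lay above all of them.

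Among the fibrillar chains, Col5a2 and its partners in the same fibrils parted. Col5a2, a chain of type V collagen that sets fibril width together with type I, had 62.5, 57.8 and 79.3 FPKM at low flow and 27.8, 35.4 and 34.8 FPKM at high flow. Every low-flow pool exceeded every high-flow pool, and the log2 fold-change was 1.75 (standard error 0.27, edgeR adjusted p = 0.000394). Col5a1, the other main chain of type V, had 0.446, 0.469 and 1.40 FPKM at low flow and 2.42, 2.15 and 2.48 FPKM at high flow. The order was the opposite of that of Col5a2, without overlap, and the log2 fold-change was −1.04 (standard error 0.25, edgeR adjusted p = 0.00618). The ratio of Col5a2 to Col5a1 FPKM was 107 ± 44.3 in the low-flow pools and 14.0 ± 2.48 in the high-flow pools (mean ± SD, n = 3 each).

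Col1a2, a chain of the main fibrillar collagen, had 4.39, 3.98 and 19.9 FPKM at low flow and 27.6, 39.4 and 49.5 FPKM at high flow. The groups did not overlap, although pool c came close, and the log2 fold-change was −1.60 (standard error 0.34, edgeR adjusted p = 0.00345). Col1a1 and Col3a1, named here after their values were seen, had overlapping pools. For Col1a1 the pools held 1.07, 1.14 and 9.13 FPKM at low flow and 3.25, 8.44 and 12 FPKM at high flow (log2 fold-change −0.67, edgeR adjusted p = 0.333). For Col3a1, the chain of the type III fibrils of vessel walls, they held 2.91, 1.95 and 17.0 FPKM against 7.23, 14.8 and 29.9 FPKM (log2 fold-change −0.86, edgeR adjusted p = 0.211). In each of these fibrillar genes pool c was the highest low-flow pool, and pool c also had the highest fibroblast marker share of the 3, at 0.0924%, of which the part in these values was not tested. Of 9 fibroblast markers tested, 4 were called lower at low flow (Dpt, Mfap5, Pi16 and Serpinf1) and 0 higher, and the part of fibroblast RNA in the collagen results was likewise not tested. Fat cell markers moved further in the same direction. All 8 that were tested of 10 listed were called lower at low flow, and the median of their log2 fold-changes was −5.72. The list took 0.00398% to 0.00775% of the counts at low flow and 0.0354% to 0.345% at high flow. Their part in the lower fibrillar and FACIT chains was not tested.

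Col8a1, a short-chain collagen made by endothelial and smooth muscle cells, was the most strongly raised member. It had 39.2, 43.4 and 47.3 FPKM at low flow and 14.3, 17.6 and 14.8 FPKM at high flow. The 3 low-flow pools were close to each other and far above the high-flow pools, with a log2 change of 2.23 (standard error 0.27, edgeR adjusted p = 7.7e-05). Of 8 smooth muscle markers tested, 3 (Acta2, Smtn and Tagln) were called higher at low flow by the same test and 1 (Mylk) lower. The median log2 fold-change of these markers was −0.12, against −0.07 over all genes, and their part in the Col8a1 result was not tested. Col8a2, the partner of Col8a1 in the cornea, was listed at 0 in all low-flow and sham pools and had 0.112, 0 and 0.0526 FPKM at high flow, too little for the test.

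Col23a1, a transmembrane collagen that can be shed from the cell surface, had 0.933, 0.571 and 3.75 FPKM at low flow and 8.93, 7.05 and 8.70 FPKM at high flow. The groups were apart, and the log2 fold-change was −1.73 (standard error 0.33, edgeR adjusted p = 0.00165). Col17a1, the transmembrane collagen of hemidesmosomes, had 0 counts in all 9 untreated pools. Col14a1, a FACIT collagen of fibril surfaces, had 0.0700, 0.0715 and 0.780 FPKM at low flow and 0.633, 1.72 and 2.10 FPKM at high flow. Pool c reached into the high-flow range, and the log2 fold-change was −1.76 (standard error 0.59, edgeR adjusted p = 0.0299). Col19a1, the other FACIT chain named for its level, had 0.0991, 0.108 and 0.303 FPKM against 0.587, 0.347 and 0.254 FPKM, overlapping and not called (log2 fold-change −0.61, edgeR adjusted p = 0.253). Col7a1, which forms the anchoring fibrils of skin, was listed at 0 in 5 of the 6 pools and at 0.0388 FPKM in low-flow pool c.

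The beaded-filament chains were scarce in these pools. Col6a1 had 0.154, 0 and 1.10 FPKM at low flow and 0.490, 2.01 and 3.45 FPKM at high flow, and Col6a2 had 0, 0 and 0.539 FPKM against 0.131, 0.778 and 0.615 FPKM. The pools overlapped in both genes, and pool c was again the highest at low flow. Only Col6a1 passed the filter, with a log2 change of −1.70 that was not called (edgeR adjusted p = 0.0827).

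Against sham-operated arteries, Col4a3, Col4a4, Col23a1, Col1a2 and Col5a1 were again lower at low flow and Col8a1 and Col5a2 higher. Of 15 members tested between low flow and sham, 7 were called, 2 higher and 5 lower, against 40.3% of 11164 genes called, 20.6% higher and 19.7% lower. The sham pools held 64.1, 68.9 and 38.0 FPKM of Col4a3 and 17.6, 18.6 and 14.8 FPKM of Col4a4, all above the low-flow pools. The log2 fold-changes of low flow against sham were −2.82 for Col4a3 (edgeR adjusted p = 0.00689) and −2.65 for Col4a4 (edgeR adjusted p = 0.00146). Col23a1 had 10.9, 12.5 and 7.05 FPKM in sham arteries, a log2 change of −2.00 (edgeR adjusted p = 0.00503). Col1a2 had 37.9, 38.0 and 35.3 FPKM and Col5a1 2.41, 2.12 and 2.26 FPKM in sham, with log2 fold-changes of −1.50 and −0.95 (edgeR adjusted p = 0.00922 and 0.0153).

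Col8a1 had 19.3, 13.3 and 34.2 FPKM in sham, below all low-flow pools, and its log2 fold-change was 1.74 (edgeR adjusted p = 0.00962). Col5a2 had 45.8, 30.9 and 63.7 FPKM in sham, where pool c lay within the low-flow range, and its log2 fold-change was 1.27 (edgeR adjusted p = 0.018). With plain library totals, which moved the median of all genes by 0.66, these became 0.96 for Col8a1 (edgeR adjusted p = 0.0552) and 0.51 for Col5a2 (edgeR adjusted p = 0.281). Col18a1 had 22.7, 16.0 and 35.6 FPKM in sham, overlapping low flow (log2 fold-change 0.73, edgeR adjusted p = 0.0898). Between high flow and sham, edgeR called 0 of 16 members and 0% of all 11030 genes, and DESeq2 gave 0 calls among the members. Unadjusted by edgeR, 3 members and 868 of all genes passed 0.05. Markers of other cells moved between low flow and sham as well, and their part was not tested. Fibroblast markers took 0.0302% to 0.0924% of the counts at low flow and 0.139% to 0.169% in sham, with 4 of 9 called lower (Clec3b, Dpt, Mfap5 and Pi16) and Fbln1 higher. Acta2 and Tagln were called higher and Mylk lower among 8 smooth muscle markers, and 9 of 13 macrophage and 7 of 7 neutrophil markers were called higher. Without sham pool c the low flow against sham comparison called 12 members, and without low-flow pool c 11.

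The make-up of the collagen transcript pool differed between the groups. Given as mean ± SD over the 3 pools of a group, all members together summed to 192 ± 74.1 FPKM in the low-flow pools, 275 ± 62.9 FPKM in the high-flow pools and 279 ± 27.2 FPKM in the sham pools. Basement membrane chains made up 28.6% ± 5.09 of this sum in low-flow pools, 53.6% ± 1.74 in high-flow pools and 46.4% ± 5.91 in sham pools. Short chains, nearly all Col8a1, made up 24.1% ± 6.32, 5.88% ± 1.28 and 7.86% ± 2.96 in the same order, and fibrillar chains 45.8% ± 1.87, 35.7% ± 3.08 and 40.4% ± 4.30. For each of the 3 classes a two-sided exact permutation test of low against high flow gave p = 0.1, the smallest that 3 pools against 3 allow, and the shares of a library are not independent of each other. Shares of this kind do not depend on the scaling between libraries. In the treated libraries (mean ± SD, n = 2 each) short chains made up 19.8% ± 5.23 at low and 4.04% ± 0.83 at high flow with IgG, and 21.0% ± 5.43 and 10.3% ± 3.18 with PBS liposomes. Basement membrane chains made up 42.1% ± 3.60 and 49.1% ± 0.299 with IgG, and 43.3% ± 4.07 and 43.5% ± 0.392 with PBS liposomes. Fibrillar chains made up 35.3% ± 0.804 at low and 41.8% ± 0.715 at high flow with IgG, and 33.6% ± 0.406 and 41.3% ± 2.80 with PBS liposomes. This was the opposite order to the untreated pools, which had reads of another length. The mean share of short chains was higher at low flow under either control treatment, and that of basement membrane chains was about equal with PBS liposomes.

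**Figure D2:**
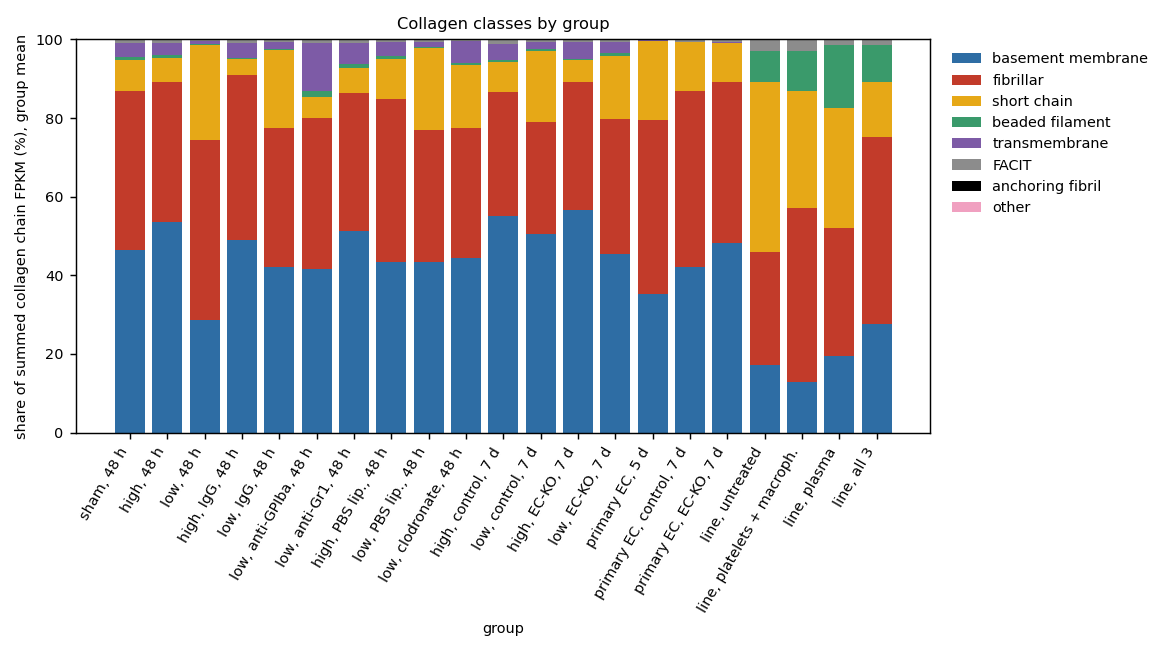
Share of the summed collagen FPKM taken by each class of chains, as stacked bars from 0% to 100% at the mean of the libraries of each of 21 groups (arteries first, then cultures). Basement membrane chains took 28.6% at untreated low flow and 53.6% at untreated high flow, and short chains 24.1% and 5.88%.

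Genes that fold, cross-link or bind collagen were read beside the chains from lists of named genes. Of 26 collagen-processing genes tested of 33 listed, 9 were higher and 7 lower at low flow than at high flow, beside the 23.6% of all genes called higher and 22.6% called lower. The raised genes included Serpinh1, the collagen chaperone of the endoplasmic reticulum (log2 fold-change 3.92, edgeR adjusted p = 0.000927), Sparc, a collagen-binding matrix protein (2.68, edgeR adjusted p = 0.0122), and Pxdn, which cross-links type IV collagen (2.05, edgeR adjusted p = 0.000179). Fkbp10 and Ppib, prolyl isomerases of collagen folding, had log2 fold-changes of 1.84 and 1.43 (edgeR adjusted p = 0.000334 and 0.015). The lowered genes included Pcolce2 and Pcolce, enhancers of procollagen C-proteinase (−1.89 and −0.77, edgeR adjusted p = 0.000466 and 0.0131), Lox, which cross-links fibrillar collagen (−1.12, edgeR adjusted p = 0.0049), and the prolyl hydroxylases Leprel2 and P4ha2 (−0.94 and −0.78, edgeR adjusted p = 0.00111 and 0.00853). The median log2 fold-change of the list was 0.08, against −0.07 over all genes.

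Of 6 collagen receptors tested of 10, 2 were higher and 2 lower at low flow, beside 46.2% of all genes called in either direction. Itga2, the integrin chain by which platelets and other cells bind collagen, and Lair1, an inhibitory leukocyte receptor, had log2 fold-changes of 6.52 and 4.81 (edgeR adjusted p = 4.14e-05 and 3.87e-05). In the same comparison 10 of 12 macrophage markers and 7 of 7 neutrophil markers tested were called higher and 0 lower. The part of these cells in the list results was not tested. The discoidin receptors Ddr1 and Ddr2, kinases that collagen activates, had −1.16 and −1.02 (edgeR adjusted p = 0.0107 and 0.00452). Of 8 basement membrane partners tested of 15, 2 were higher and 3 lower, beside the same background. The laminin chain Lamb1 had a log2 change of 3.98 (edgeR adjusted p = 2.11e-06) and Lama4 0.58 (edgeR adjusted p = 0.0251). Lamb2, a laminin chain, Agrn, a heparan sulfate proteoglycan, and Lama5, a laminin chain, had −2.14, −1.33 and −0.61 (edgeR adjusted p = 0.000201, 0.000283 and 0.0435).

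In the treated mice the same flow comparison was made with IgG and with PBS liposomes. There all low-flow libraries came from 1 sequencing run and all high-flow libraries from another, so flow and run cannot be told apart. With IgG, 11 of 26 members were called, 1 higher and 10 lower at low flow, beside 40.5% of 13401 genes called, 22.8% higher and 17.7% lower. With PBS liposomes, 9 of 26 were called, 1 higher and 8 lower, beside 35.0% of all genes, 19.6% higher and 15.5% lower. Both shares of members called in either direction, 42.3% and 34.6%, lay near the background, but the calls were mostly lower. The median log2 fold-change of the 26 members was −1.68 with IgG and −1.15 with PBS liposomes, against 0.07 and 0.06 over all genes. The test of the difference between the IgG and the PBS flow change called 0 of 26 members and 0% of all genes with edgeR. DESeq2 called 0 members. Unadjusted by edgeR, 1 member and 801 of all genes had a p under 0.05.

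Col4a3 had 49.3 and 51.8 FPKM with IgG at high flow and 6.07 and 2.30 FPKM at low flow, a log2 change of −3.69 (edgeR adjusted p = 0.00207). With PBS liposomes it had 39.3 and 26.3 FPKM at high flow and 2.63 and 1.12 FPKM at low flow, a log2 change of −4.02 (edgeR adjusted p = 0.00153). The low-flow libraries lay below all high-flow libraries under either control treatment. Col4a4 had 22.7 and 17.5 FPKM with IgG at high flow against 4.25 and 1.33 at low flow, and 11.6 and 7.35 FPKM against 1.61 and 1.09 with PBS liposomes. Its log2 fold-changes were −2.94 and −2.70 (edgeR adjusted p = 0.00468 and 0.00733), again without overlap. Col1a2, Col5a1, Col23a1, Col14a1 and Col4a5 were called lower with both control treatments. Markers of other cells moved in the same comparisons, and their part was not tested. Of 10 fibroblast markers, 4 (Clec3b, Gsn, Mfap5 and Pi16) were called lower at low flow under either treatment, and the list took 0.0691% to 0.0877% of the counts at low and 0.167% to 0.175% at high flow with IgG, and 0.0597% to 0.0623% and 0.169% to 0.176% with PBS liposomes. Of 14 macrophage markers, 11 were called higher with IgG and 8 with PBS liposomes, and of 10 smooth muscle markers Acta2 and Tagln were called higher under either. Of 11 endothelial markers, 5 were called lower and 2 higher with IgG, and 4 lower and 2 higher with PBS liposomes. For Col1a2 the log2 fold-changes were −2.15 with IgG and −2.22 with PBS liposomes (edgeR adjusted p = 0.00264 and 0.00236), and for Col5a1 they were −1.79 and −1.03 (edgeR adjusted p = 0.000915 and 0.00861).

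Each control treatment had 1 member called higher, Col8a1 with IgG and Col12a1 with PBS liposomes, and the flow changes of both were positive under either treatment. Col8a1 had 22.3 and 30.6 FPKM with IgG at high flow and 70.0 and 110 FPKM at low flow, a log2 change of 1.69 (edgeR adjusted p = 0.0397). With PBS liposomes it had 37.1 and 48.7 FPKM against 66.3 and 80.2 FPKM, which did not overlap but were not called (log2 fold-change 0.88, edgeR adjusted p = 0.251). Col12a1, a FACIT collagen of stressed and healing tissue, had 0.138 and 0.0432 FPKM with PBS liposomes at high flow and 2.68 and 0.873 FPKM at low flow (log2 fold-change 4.39, edgeR adjusted p = 0.0441). With IgG it had 0.431 and 0.16 FPKM against 2.30 and 3.03 FPKM (log2 fold-change 3.11, edgeR adjusted p = 0.0963). Col5a2 and Col18a1 were not called with either treatment, with log2 fold-changes of 0.24 and 0.28 for Col5a2 and 0.12 and 0.33 for Col18a1 (edgeR adjusted p from 0.594 to 0.891).

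Col4a1 was called lower with IgG, at 54.2 and 49.2 FPKM at low flow and 112 and 127 FPKM at high flow (log2 fold-change −1.30, edgeR adjusted p = 0.0449). In the PBS libraries it had 52.2 and 39.5 FPKM at low flow and 65.3 and 42.1 FPKM at high flow, with overlap. The other members called are named here after their values were seen. Col1a1 and Col20a1 were called lower with IgG only (log2 fold-change −2.37 and −3.76, edgeR adjusted p = 0.0294 and 0.0474), and Col16a1 with PBS liposomes only (−3.03, edgeR adjusted p = 0.0249). Col20a1 had 44 and 5 counts in the high-flow IgG libraries and 4 and 1 in the low-flow ones. Its call was lost with plain library totals. Leaving out a library took the count with IgG to between 4 (without low-flow library 2) and 10, with 6 without high-flow library 1. With PBS liposomes it took the count to between 2 (without high-flow library 1) and 8, with 3 and 5 without low-flow libraries 2 and 1.

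**Figure D3:**
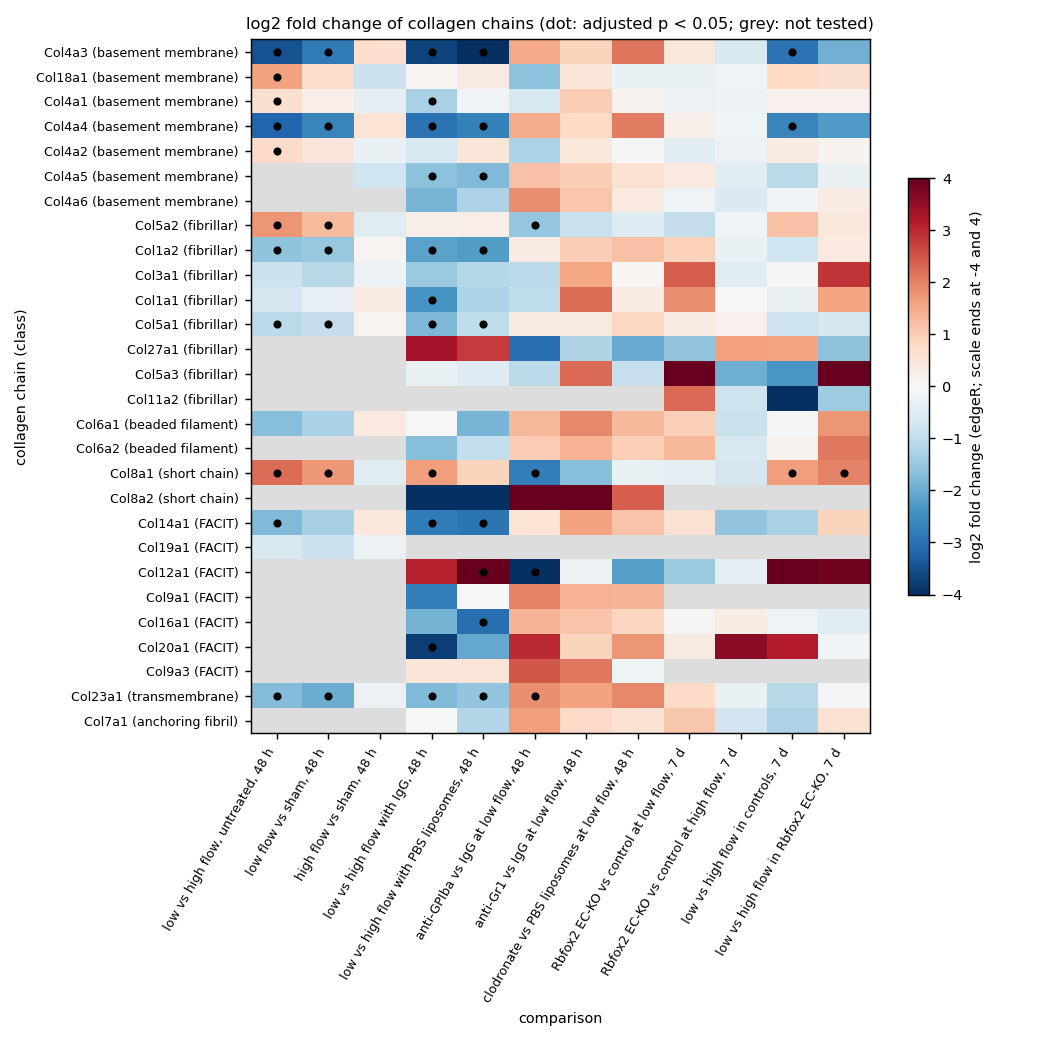
Heat map of log2 fold-changes by edgeR, with collagen chains and their class in rows and 12 comparisons in columns, blue for lower and red for higher in the first-named group on a scale that ends at −4 and 4, a dot where the adjusted p was under 0.05 and grey where a chain did not pass the filter. Col4a3 and Col4a4 were lower in all 5 comparisons of low with high flow, from −1.91 to −4.02 for Col4a3.

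Platelet depletion at low flow changed 4 of 26 members against IgG, a share of 15.4% beside 16.5% of all 13401 genes. Col23a1 was the 1 member called higher, beside 6.05% of all genes, and Col8a1, Col5a2 and Col12a1 were the 3 called lower, beside 10.5%. Col8a1 had 70.0 and 110 FPKM with IgG and 19.9 and 7.02 FPKM with anti-GPIba, a log2 change of −2.78 (standard error 0.61, edgeR adjusted p = 0.0244). The anti-GPIba libraries lay below both IgG libraries and also below both IgG high-flow libraries. Col5a2 had 98.7 and 110 FPKM with IgG and 44.6 and 27.9 FPKM with anti-GPIba, a log2 change of −1.56 (standard error 0.39, edgeR adjusted p = 0.031). Col12a1 had 2.30 and 3.03 FPKM with IgG and 0.0787 and 0.0865 FPKM with anti-GPIba, a log2 change of −5.03 (standard error 1.56, edgeR adjusted p = 0.0482). Each of the 3 genes was separated from IgG without overlap.

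Col23a1 had 10.1 and 5.58 FPKM with IgG, 32.3 and 25.8 FPKM with anti-GPIba, and 26.3 and 24.4 FPKM in the IgG high-flow libraries. Both anti-GPIba libraries exceeded both IgG low-flow libraries, with a log2 change of 1.87 (standard error 0.38, edgeR adjusted p = 0.0211). Col4a3 had 14.7 and 9.83 FPKM and Col4a4 8.85 and 7.06 FPKM with anti-GPIba, above the IgG low-flow libraries and below the IgG high-flow libraries, but neither was called (log2 fold-change 1.53 and 1.49, edgeR adjusted p = 0.0909 and 0.0954). Col18a1 had 45.1 and 19.3 FPKM against 96.4 and 98.7 FPKM with IgG (log2 fold-change −1.63, edgeR adjusted p = 0.0824). Unadjusted by edgeR, 11 of the 26 members and 4912 of all 13401 genes had a p under 0.05. Leaving out any 1 of the 4 libraries left 0 members called, and a fit of these 2 groups alone called 10.

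Macrophage markers took 0.0299% to 0.0398% of the counts with anti-GPIba and 0.241% to 0.265% with IgG at low flow, and smooth muscle markers 0.0751% to 0.106% and 0.440% to 0.476%. Endothelial markers took 1.09% to 1.11% with anti-GPIba and 0.495% to 0.609% with IgG, with Pecam1 and Tek called higher, and fibroblast markers 0.149% to 0.219% and 0.0691% to 0.0877%, with Dcn and Gsn called higher. Neutrophil markers took 0.000697% to 0.00131% and 0.0137% to 0.0388%, with 6 of 9 called lower. Platelet markers took 0.00235% to 0.00297% and 0.0042% to 0.00464%, with P2ry12, Ppbp and Tubb1 called lower and Gp1ba, which encodes the target of the antibody, higher. The part of these cells in the collagen results, the higher Col23a1 included, was not tested. The processing genes had 1 of 31 higher and 7 lower. Serpinh1, Pxdn, Sparc and Ppib, all raised at low flow in untreated arteries, had log2 fold-changes of −2.26, −1.97, −1.42 and −0.92 with anti-GPIba (edgeR adjusted p = 0.0396, 0.0334, 0.0214 and 0.0284). P4ha3, a prolyl hydroxylase, had −4.84 (edgeR adjusted p = 0.0175) and Lox 1.19 (edgeR adjusted p = 0.0338). Lair1 was the 1 of 8 receptors called (−3.92, edgeR adjusted p = 0.0214). Of 13 basement membrane partners, Lamb1 had −3.22 (edgeR adjusted p = 0.0474), and Lamb2 and Agrn had 2.22 and 1.24 (edgeR adjusted p = 0.0316 and 0.0473).

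**Figure D4:**
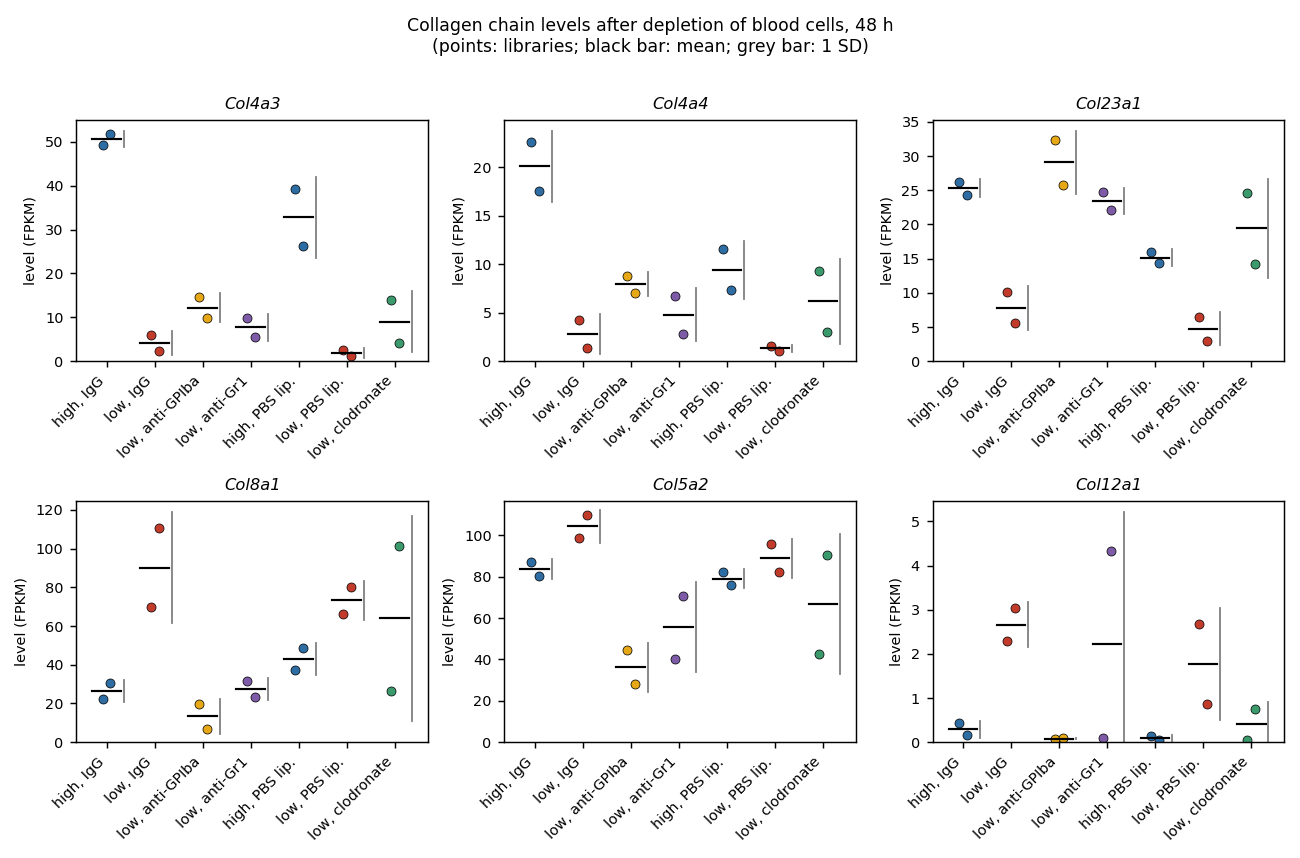
Level in FPKM on a linear axis from 0 of 6 collagen chains in the 7 treated groups at 48 hr along the x axis, with 1 point per library, a black bar at the mean and a grey bar of 1 SD either side. For Col8a1 the anti-GPIba libraries lay at 19.9 and 7.02 FPKM and the low-flow IgG libraries at 70.0 and 110 FPKM, and for Col23a1 at 32.3 and 25.8 against 10.1 and 5.58 FPKM.

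Depletion of granulocytes gave no call among the 26 members with edgeR, which called 0% of all genes, and DESeq2 called 1 member (Col23a1). Unadjusted by edgeR, 7 members and 2432 of all 13401 genes had a p under 0.05. The 2 anti-Gr1 libraries were unlike. Col18a1 had 53.6 FPKM in library 1 and 211 in library 2, Col4a1 45.4 and 154 FPKM, and Col12a1 0.103 and 4.33 FPKM. Smooth muscle markers took 0.184% of the counts in library 1 and 0.627% in library 2, and their part in this split was not tested. Col23a1 had 24.8 and 22.1 FPKM, above both IgG libraries (log2 fold-change 1.60, edgeR adjusted p = 0.243). Col8a1 had 31.4 and 23.4 FPKM, below both. Against IgG, endothelial markers took 0.827% to 0.969% of the counts beside 0.495% to 0.609%, fibroblast markers 0.103% to 0.182% beside 0.0691% to 0.0877%, macrophage markers 0.136% to 0.155% beside 0.241% to 0.265% and neutrophil markers 0.00206% to 0.00376% beside 0.0137% to 0.0388%. No marker of these lists was called, and their part in the collagen values was not tested.

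Clodronate liposomes likewise gave no call among the 26 members with edgeR against PBS liposomes, and edgeR called 0.119% of all genes. DESeq2 called 4 members. Unadjusted by edgeR, 5 members and 2002 of all 13401 genes had a p under 0.05. Col23a1 had 24.6 and 14.3 FPKM with clodronate and 6.45 and 3.03 FPKM with PBS liposomes, without overlap (log2 fold-change 1.92, edgeR adjusted p = 0.081). Col4a3 had 13.9 and 4.14 FPKM against 2.63 and 1.12 FPKM, and Col4a4 9.31 and 3.05 FPKM against 1.61 and 1.09 FPKM, also without overlap (log2 fold-change 2.14 and 2.07, edgeR adjusted p = 0.199 and 0.208). Col8a1 had 26.5 FPKM in clodronate library 1 and 102 in library 2, on either side of the PBS values of 66.3 and 80.2. Without clodronate library 2, edgeR called 5 members. Macrophage markers took 0.0308% to 0.0319% of the counts with clodronate and 0.142% to 0.236% with PBS liposomes, with Cd14 and Csf1r called lower. Endothelial markers took 0.627% to 0.979% and 0.43% to 0.457%, and smooth muscle markers 0.248% to 0.273% and 0.304% to 0.591%, with none called. Their part in these values was not tested. In the 100 bp pools, 1 of each treatment and so without a test, Col23a1 had 9.79 FPKM with clodronate and 2.60 with PBS liposomes, Col4a3 8.43 and 3.08, and Col8a1 50.4 and 68.8.

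At 7 days, low flow in control mice called 3 of 24 members against high flow, a share of 12.5% beside 2.40% of 13352 genes. Col8a1 had 89.3, 170 and 132 FPKM in low-flow control libraries 1, 4 and 5 and 34.2 and 42.2 FPKM in the high-flow controls. All low-flow libraries lay above, with a log2 change of 1.69 (standard error 0.29, edgeR adjusted p = 0.0273). Col4a3 had 6.64, 1.27 and 3.42 FPKM at low flow and 20.7 and 34.2 FPKM at high flow, a log2 change of −2.96 (standard error 0.54, edgeR adjusted p = 0.0325). Col4a4 had 5.58, 1.32 and 1.66 FPKM and 15.3 and 18.0 FPKM, a log2 change of −2.65 (standard error 0.52, edgeR adjusted p = 0.0384). The low-flow libraries of both type IV genes lay below the high-flow libraries. Smooth muscle markers took 0.132% to 0.18% of the counts at low flow and 0.0323% to 0.0417% at high flow in controls, with Acta2 the 1 of 10 called (higher). Endothelial markers took 0.527% to 1.12% and 1.5% to 1.57%, with Emcn called higher and Tek lower, macrophage markers 0.041% to 0.194% and 0.0156% to 0.0222%, with Cd68 called higher, and fibroblast markers 0.0921% to 0.209% and 0.14% to 0.15%, with Mfap5 called lower. Their part in the Col8a1, Col4a3 and Col4a4 results was not tested. Of the partner lists, Lox and Leprel2 among 30 processing genes and Agrn among 14 basement membrane partners were called lower in this comparison, none was called higher, and 0 of 9 receptors were called.

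The high-flow libraries were all from 1 sequencing run, and the low-flow libraries were spread over 3 runs, with low-flow control library 4 and EC-KO library 5 in the run of the high-flow libraries. In control library 4 alone, Col8a1 was at 170 FPKM, Col4a3 at 1.27 and Col4a4 at 1.32, and so fell beyond both high-flow controls of that run in the direction of the other low-flow libraries. The count of 3 rose to 8 without low-flow control library 1, and was 1 without low-flow library 4 and 0 without low-flow library 5 or either high-flow library. A fit of the 2 control groups alone also called 0, and with the sequencing run as a term, chosen after seeing the data, 8 members were called, these 3 included.

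In Rbfox2 EC-KO arteries, low flow against high flow called 1 of 24 members, a share of 4.17% beside 1.09% of all genes. It was Col8a1, at 84.7, 100 and 111 FPKM at low flow and 24.6 and 25.1 FPKM at high flow (log2 fold-change 1.97, standard error 0.30, edgeR adjusted p = 0.0192). Col4a3 had 5.26, 4.01 and 5.84 FPKM against 14.8 and 22.5 FPKM, and Col4a4 4.19, 2.38 and 3.00 FPKM against 14.2 and 16.3 FPKM. Neither overlapped nor was called (log2 fold-change −1.91 and −2.27, edgeR adjusted p = 0.126 and 0.0705). The test of the difference between the EC-KO and the control flow change called 0 of 24 members and 0% of all genes with edgeR. DESeq2 called 0 members. Unadjusted by edgeR, 0 members and 538 of all genes had a p under 0.05. No member was thus shown to respond otherwise to flow without Rbfox2. Leaving out any 1 of these 5 libraries took the Col8a1 call away. Smooth muscle markers took 0.112% to 0.171% at low flow and 0.0294% to 0.0345% at high flow in EC-KO, again with Acta2 called higher. Endothelial markers took 0.78% to 0.975% and 1.62% to 1.65%, with Emcn called higher and Tek lower, macrophage markers 0.119% to 0.201% and 0.0169% to 0.0302% with none of 14 called, and fibroblast markers 0.178% to 0.369% and 0.136% to 0.152%, with Lum called higher and Mfap5 lower. The part of these cells was not tested.

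Directly compared between EC-KO and control at low flow, 0 of 24 members and 0% of all genes were called by edgeR. DESeq2 called 0 members. Unadjusted by edgeR, 1 member (Col23a1) and 880 of all 13352 genes had a p under 0.05. Rbfox2 itself, lower in each EC-KO pool than in any control pool at low flow, was not called either. The lack of calls therefore does not show equal levels. At high flow 0 of 24 members were called by edgeR and 0 by DESeq2, and edgeR called 0.00749% of all genes. Unadjusted by edgeR, 0 members and 293 of all genes had a p under 0.05. Col23a1 had 16.9, 5.95 and 8.46 FPKM in low-flow controls and 15.2, 19 and 17.8 FPKM in EC-KO (log2 fold-change 0.77, edgeR adjusted p = 0.692). Control library 1 lay among the EC-KO libraries and the other controls below them. Col5a2 had 47.5, 159 and 202 FPKM in controls and 43.3, 60.1 and 109 FPKM in EC-KO (log2 fold-change −0.94, edgeR adjusted p = 0.692). Without control library 1 edgeR called 3 members, Col23a1, Col4a4 and Col5a2. Each of the 3 sequencing runs held 1 control and 1 EC-KO library at low flow. Within the runs, Col5a2 was lower in the EC-KO library in 3 of 3, at 43.3 against 47.5, 109 against 159 and 60.1 against 202 FPKM. The same held for Col8a1 (84.7 against 89.3, 111 against 170 and 100 against 132 FPKM), Col4a1 (80.4 against 112, 105 against 115 and 111 against 125 FPKM), Col4a2, Col12a1 and Col27a1, 6 of the 24 members in all, and for 0 members in the other direction. The share of all genes lower in every run was not computed, and FPKM are scaled by plain library totals. These counts are therefore not read as an effect of the deletion on the members. With the run as a term in the fit, chosen after seeing the data, edgeR called 0 of 24, with 3 at an unadjusted p under 0.05, namely Col23a1 (log2 fold-change 0.90, edgeR adjusted p = 0.453), Col5a2 (−0.78, edgeR adjusted p = 0.453) and Col12a1 (−1.57, edgeR adjusted p = 0.453).

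Among the EC-KO libraries at low flow, library 4 stood apart in Col1a1, Col1a2, Col3a1 and Col5a3 of the fibrillar chains, in Col14a1 of the FACIT chains and in Col6a1 and Col6a2 of the beaded-filament chains. Col3a1 had 242 FPKM in it and 5.48 and 15.7 in the other EC-KO libraries, Col1a1 44.7 FPKM against 0.542 and 3.45, and Col6a2 9.53 FPKM against 0.299 and 0.201. Col1a2 had 130 FPKM there, against 35.2 and 48.2. Col5a3 had 3.00 FPKM (220 counts) against 0.136 and 0 (15 and 0 counts), and Col14a1 6.81 FPKM against 0.809 and 2.16. The other type V chains were less apart, with Col5a2 at 60.1 FPKM against 43.3 and 109 and Col5a1 at 13.6 FPKM against 10.5 and 13.0. Fibroblast markers took 0.369% of the counts in this library and 0.0921% to 0.209% in the other low-flow libraries at 7 days, and their part in these values was not tested. Of the basement membrane chains, Col4a1 had 111 FPKM there against 80.4 and 105, and Col18a1 186 FPKM against 99 and 144. Col15a1, a basement membrane proteoglycan chain, had 0.502 FPKM (32 counts), its highest value in any library, against 0.0415 and 0.125 FPKM (4 and 9 counts).

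**Figure D5:**
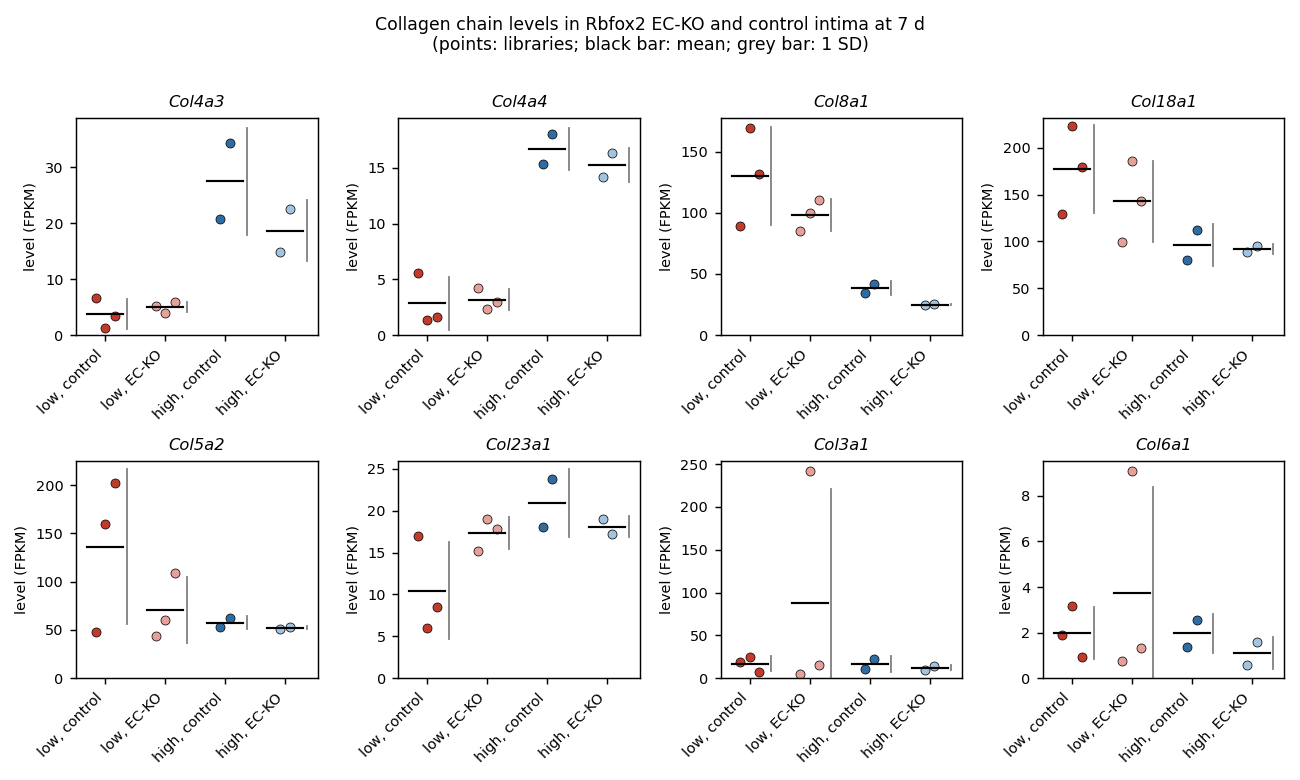
Level in FPKM on a linear axis from 0 of 8 collagen chains at 7 days, for control and Rbfox2 EC-KO arteries at low and high flow along the x axis, with 1 point per library, a black bar at the mean and a grey bar of 1 SD either side. Col8a1 lay at 84.7 FPKM or more in all 6 low-flow libraries and at 42.2 FPKM or less in all 4 high-flow libraries.

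The cultures, each a single library, were not tested, and intervals are 95% Poisson intervals that cover counting error only. The primary endothelial cells at 7 days were rich in basement membrane chains. Col4a1 had 233 FPKM (230 to 236) in control and 245 FPKM (241 to 249) in EC-KO cells, above every artery library, and Col4a5, named here after its values were seen, had 19.9 FPKM (19 to 20.8) and 18.4 FPKM (17.3 to 19.5), against at most 1.38 FPKM in arteries. Col5a2 had 301 FPKM (298 to 305) and 292 FPKM (288 to 296). Col4a3, in contrast, had 3.91 FPKM (3.57 to 4.28) in control and 1.30 FPKM (1.06 to 1.56) in EC-KO cells, in the range of low-flow arteries. Col23a1 had 0.771 FPKM (0.591 to 0.989) in control and 2.5 FPKM (2.10 to 2.95) in EC-KO cells, and Col3a1 69.7 FPKM (67.9 to 71.6) and 13.0 FPKM (12 to 13.9). The primary cells at 5 days had 40.0 FPKM (37.6 to 42.6) of Col8a1, 83.6 FPKM (80.5 to 86.8) of Col5a2 and 0 counts of Col1a1 and Col6a1, for which 3 counts would be 0.132 and 0.157 FPKM.

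The aortic line had a different set of chains. Untreated, it held 447 FPKM (442 to 452) of Col8a1, 141 FPKM (138 to 143) of Col3a1 and 59.9 FPKM (57.9 to 61.9) of Col6a1, and 1.00 FPKM (0.778 to 1.27) of Col1a1. Col16a1, a FACIT collagen named here after its values were seen, had 16.9 FPKM (16.0 to 17.9) in the line and at most 0.930 FPKM in arteries. Endothelial markers took 0.0286% of the counts in the untreated line and 0.496% in the primary control cells. Short chains made up 43.4% of the summed collagen FPKM of the untreated line and basement membrane chains 17.2%, against 12.4% and 42.0% in the primary control cells.

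With platelets and macrophages, plasma, and all 3 additions, Col18a1 in the line had 33.2 FPKM (31.8 to 34.5), 58.7 FPKM (56.9 to 60.5) and 119 FPKM (117 to 121), against 9.16 FPKM (8.47 to 9.89) untreated. Col8a1 had 387 FPKM (382 to 392), 346 FPKM (341 to 350) and 156 FPKM (153 to 158) in the same order. Col4a3 had 1.11 FPKM (0.929 to 1.32), 0.321 FPKM (0.227 to 0.441) and 0.195 FPKM (0.128 to 0.283), against 3.48 FPKM (3.16 to 3.82) untreated. Col4a5 was highest in the untreated culture and lowest with all 3 additions, at 33.2 and 11.4 FPKM, while Col4a1 had 79.2 and 116 FPKM in these cultures. Macrophage markers took 0.00617% of the counts in the untreated culture, 0.043% with platelets and macrophages, 0.00874% with plasma and 0.0319% with all 3 additions, and platelet markers 0.000701%, 0.00219%, 0.00139% and 0.00188%. Their part in these collagen values was not tested. Col17a1 and Col8a2, among the 5 chains at 1 CPM in culture only, had at most 0.97 and 0.714 FPKM in the line, and at most 0.330 and 0.281 FPKM in arteries. Col4a6, the chain encoded beside Col4a5, had 3.72 FPKM (3.35 to 4.13) in the untreated line and 0.835 FPKM (0.67 to 1.03) with all 3 additions, and at most 0.387 FPKM in arteries. The other members at 1 CPM or more that no result turned on were low throughout the arteries. There Col15a1 and Col5a3, a further type V chain, reached the 0.502 and 3.00 FPKM of EC-KO library 4 given above, and Col9a1, a cartilage FACIT chain, 1.28 FPKM. Col27a1, Col6a4, Col9a3, Col11a2, Col24a1, Col22a1 and Col11a1 reached at most 0.624, 0.480, 0.376, 0.244, 0.139, 0.0925 and 0.0606 FPKM in any artery library.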

How the data were processed

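RNA-seq of intimal flushes and cultured cells was analyzed from the table of RSEM expected counts per gene and library that the authors deposited. The submitters' processing notes name RSEM 1.2.15, STAR 2.5.1b and mm9. For the untreated 48 hr pools the methods give TopHat and a figure legend STAR. The expected counts were not normalized, and 5.2% to 19.3% of the values of a library were not whole. They were rounded for the tests. The effective length of each gene, in bases and deposited by the authors, is a single column for all libraries. Of 21675 entries 1 without a name was left out, and of 204 value columns 162 were not used, among them second runs that could not be mapped to samples.

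FPKM were computed from the count, the library total and the effective length, and CPM from plain library totals. A floor of 3 counts and 95% Poisson intervals cover counting error only. Groups were compared with edgeR 4.0.16 in R 4.3.3 (default filter on low counts, TMM scaling, quasi-likelihood test, Benjamini-Hochberg adjustment over all genes tested, threshold 0.05). The untreated comparisons were fitted on their own groups, the 7 treated groups in 1 fit and the 4 groups at 7 days in 1 fit. Standard errors are the absolute log2 fold-change over the square root of the F statistic. Class shares were compared with a two-sided exact permutation test. DESeq2 1.42.0 and other scalings, filters, fits and left-out libraries were alternatives. The scripts were tested on simulated data, and tables were handled in pandas 2.3.3 and numpy 2.4.6 under Python 3.11.15, with scipy 1.17.1 for exact tests.

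Values by library are given for members at 1 CPM or more that were among the 2 most abundant of their class in the untreated pools, or were called in low against high flow (untreated), anti-GPIba against IgG or EC-KO against control at low flow. Up to 5 called genes per direction are given from the lists of processing genes, receptors and basement membrane partners. The members, lists and rule were chosen with earlier results of these data known. Sequences are from RefSeq (GRCm38.p6) and NCBIM37.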

Additional observations from a re-analysis of the deposited data

How the results depend on the processing

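Over 46 results for single members and 531 values under other settings, 435 kept their direction and their side of the threshold, 96 kept their direction and lost the call, and 0 reversed. The number of members called between untreated low and high flow ran from 9 to 15 over all alternatives. Leaving out 1 library at a time gave counts from 9 to 15 there, 5 to 12 for low flow against sham, 4 to 10 with IgG, 2 to 8 with PBS liposomes, 0 to 0 for anti-GPIba, 0 to 5 for clodronate, 0 to 3 for EC-KO against control at low flow, 0 to 8 for flow in 7 day controls and 0 to 0 in EC-KO. With DESeq2 the counts were 8 for anti-GPIba, 1 for anti-Gr1, 4 for clodronate, 6 for flow in 7 day controls and 5 in EC-KO. With the 2 groups fitted alone they were 10 for anti-GPIba, 0 for flow in 7 day controls and 3 in EC-KO, and without a filter on low counts 1 for clodronate and 2 for flow in EC-KO. With the sequencing run as a term, chosen after seeing the data, they were 8 for flow in 7 day controls and 2 in EC-KO. The cause of these differences was not tested, and the share of all genes called under these alternatives is not given here. A replicate block gave 3 calls for clodronate, 8 for flow in 7 day controls and 4 in EC-KO, against 10 with IgG, 9 with PBS liposomes, 6 for anti-GPIba and 0 for anti-Gr1. Nothing in the labels ties equal numbers to the same mice, and the deviations of same-numbered libraries had a median correlation across genes of 0.016 at 48 hr (42 pairs, −0.155 to 0.443) and 0.17 at 7 days (13 pairs, −0.032 to 0.489). Libraries of different numbers had medians of −0.016 at 48 hr (42 pairs) and −0.102 at 7 days (24 pairs). In groups of 2, as at 48 hr, the deviations from the group mean mirror each other. The 48 hr median for different numbers therefore follows from that for equal numbers and adds nothing to it. Not every pair of equal numbers passed 0.1, so the numbers were not taken to pair the libraries. No paired analysis was possible for the untreated pools because the columns carry pool letters, which could not be mapped to the numbered labels. Plain library totals, chosen after seeing the data, took the call from Col4a1 and Col4a2 (low against high flow), Col5a2 and Col8a1 (low flow against sham) and Col20a1 (IgG). The sum of both sequencing runs was not run, because the columns of the second run could not be mapped to samples. The 1 CPM rule gave 34 members, against 38 at 0.5 CPM and 31 at 2 CPM. With 4064477 to 6794904 counts in the untreated pools, members of few counts, such as Col6a2, Col8a2 and Col17a1, could not be compared there at this depth.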

Other observations

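Some chain pairs that assemble with each other did not keep a fixed ratio within the artery libraries of a read length. The ratio of Col1a2 to Col1a1 FPKM ran from 2.18 to 8.49 in the artery libraries of 100 bp reads and from 2.90 to 65.0 in those of 150 bp, and that of Col5a2 to Col5a1 ran from 11.5 to 140 and from 1.98 to 20.9 in the same order. Col5a1 ran from 0.446 to 2.73 FPKM in the libraries of 100 bp reads and from 7.86 to 42.5 FPKM in those of 150 bp, so its levels and its ratio to Col5a2 are given by read length. Col19a1 had 5 to 32 counts in the untreated pools and 0 in all other libraries except 3, which had 1, 3 and 11 counts. In the annotation of NCBIM37, Col4a5 and Col4a6 start 1308 bases apart and Col3a1 and Col5a2 lie 24614 bases apart.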
